A study of Mus musculus with 9 samples.

Results

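The genes described here encode 9 transcription factors that direct the differentiation of activated CD8+ T cells: Tbx21, Eomes, Prdm1, Zeb1, Zeb2, Runx1, Runx2, Runx3 and Bhlhe40. They were chosen by symbol and make up 9 of the 37022 mouse genes with a row in the deposited tables. All were measured in nascent RNA of mouse CD8+ T cells, the lymphocytes that kill infected and tumour cells. Every library came from cells given 5-ethynyl uridine (a uridine analogue that marks newly made RNA) at 0.2 mM for 30 minutes, after which the marked RNA was captured and sequenced. The groups, of 3 libraries each, were acute stimulation (Acute), chronic stimulation (Chronic) and chronic stimulation under inhibition of MEK, the kinase that activates ERK (ChronicMEKi). Acute and chronic cells received no inhibitor as far as the labels say. The manner and length of stimulation, the inhibitor and its dose, and the mouse strain and age are not stated in the labels. The labels do not say whether the libraries of a group came from separate cultures or mice, so p-values measure the spread between these libraries only, which may be technical. The study used these groups to look at transcription tied to exhaustion, the dysfunctional state of T cells that meet antigen for too long.

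Tbx21 encodes T-bet and Eomes encodes Eomesodermin, paired T-box activators that drive interferon gamma and cytotoxic genes, with T-bet favouring effector and Eomesodermin favouring memory and exhausted cells. ZEB1 and ZEB2 are related zinc-finger repressors that bind E-box sequences, and in CD8+ T cells ZEB2 acts with T-bet in terminal effector cells while ZEB1 is tied to memory cells. Prdm1 encodes BLIMP-1, a repressor that promotes terminal differentiation and is high in exhausted cells. The RUNX proteins bind DNA as partners of CBFB. RUNX3 keeps the cytotoxic programme on and the CD4 programme off, and each RUNX gene is read from a distal and a proximal promoter. BHLHE40 is a basic helix-loop-helix repressor induced by antigen-receptor signals, known for repressing Il10 in T cells.

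The first sequences shown are the run that all 3 RUNX genes carry at their distal promoter, because signal at the distal and proximal starts of these genes is described below. RefSeq promoter windows on GRCm38.p6 (250 bases before to 50 after a listed start) were found for 7 of the 9 genes, 12 windows in all. Zeb1 and Bhlhe40 had none. The distal windows of Runx1, Runx2 and Runx3 shared a run of 18 bases, CAACCACAGAACCACAAG, which holds the RUNX motif ACCACA at 2 places. Of 32544 windows, 4 (0.0123%) held this run on either strand: those of the 3 RUNX genes and that of Gm16225, a long noncoding RNA gene whose window covers the same site as that of Runx3. Each is printed 5′ to 3′ on the strand of its gene, with the shared run in capitals:
Runx1: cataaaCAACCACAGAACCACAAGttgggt
Runx2: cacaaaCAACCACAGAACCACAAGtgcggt
Runx3: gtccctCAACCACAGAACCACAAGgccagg
The printed bases lie at chr16:92826025-92826054 on the minus strand for Runx1, at chr17:44814583-44814612 on the minus strand for Runx2, and at chr4:135120503-135120532 on the plus strand for Runx3. Counting the start as position 1 and the base before it as -1, the run begins at 27 in Runx1, 22 in Runx2 and -136 in Runx3. In Runx1 and Runx2 it therefore lies within the first exon, and in Runx3 before the start. The single motif ACCACA, searched on both strands, was present in 16.7% of all windows.

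Prdm1 and Zeb2 are the genes with the largest differences below, so the sequence before starts among those with the most signal is shown next. Both windows held matches to TGANTCA, a loose form of the AP-1 motif, searched on both strands, where N is any base. The usual AP-1 motif has C or G at N, as the Zeb2 matches do, while the Prdm1 match has A. AP-1 is a family of factors that MAP kinase signals activate. The motif was present in 2535 windows (7.79% of all) and in 2 of the 12 windows of these genes. The 250 bases before the Prdm1 start, on the minus strand at chr10:44458749-44458998 and outside any exon, hold 1 match, which begins at -48 and is in capitals:
Prdm1: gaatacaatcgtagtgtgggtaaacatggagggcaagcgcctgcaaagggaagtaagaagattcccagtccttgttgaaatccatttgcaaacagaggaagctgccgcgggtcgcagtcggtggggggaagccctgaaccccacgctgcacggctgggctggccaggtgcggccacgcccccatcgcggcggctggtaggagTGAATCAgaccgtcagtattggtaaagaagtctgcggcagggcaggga
In Zeb2, the window of the start 11 bases from the 24th of its listed starts (numbered from the 5′ end) held 2 matches, beginning at -189 and -132, within exons of other Zeb2 transcripts. They are shown with their surroundings, on the minus strand at chr2:45110448-45110477 and chr2:45110391-45110420:
Zeb2 at -189: ccgcctagcctTGAGTCAagcagtcttact
Zeb2 at -132: gtcaggagttaTGACTCAttttgaagatgt
A match is a description of the letters and not a shown binding site.

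The 250 bases before the single Tbx21 start are shown because Tbx21 had the largest rise of the 9 genes under MEK inhibition. They lie on the minus strand at chr11:97115332-97115581, outside any exon. CAGGTG, the E-box that ZEB proteins bind, is in capitals and begins at -196:
Tbx21: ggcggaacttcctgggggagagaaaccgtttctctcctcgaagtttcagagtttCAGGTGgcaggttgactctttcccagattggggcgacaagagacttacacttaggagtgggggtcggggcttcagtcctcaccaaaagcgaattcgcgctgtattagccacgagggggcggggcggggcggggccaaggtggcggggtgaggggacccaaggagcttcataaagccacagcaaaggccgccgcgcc
This motif is common: it was present, on either strand, in 20.3% of all windows and in 4 of the 12 windows here, those of Tbx21, Prdm1 and the distal starts of Runx1 and Runx3. The ETS motif CCGGAAGT (3.92% of all windows) and the T-box motif AGGTGTGA (1.28%) were found in 0 of the 12.

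The deposited values are a signal per transcript in a gene-body and a pause-region table, the latter covering a stretch near each start, and depth in reads is unknown. Gene-body signal summed to between 48601757 and 52216192 per library over all genes. A ribosomal RNA-like locus took 19.1% to 22.3% of it in acute, 34.2% to 40.6% in chronic and 29.0% to 36.1% in ChronicMEKi libraries. Libraries were therefore scaled on the bulk of genes, not on their totals. Scaling on totals instead would shift the median of all genes by -0.49 (Chronic minus Acute), 0.11 (ChronicMEKi minus Chronic) and -0.38 (ChronicMEKi minus Acute) on the log2 scale. All 7 marker genes of CD8+ T cells (Cd3d, Cd3e, Cd3g, Cd247, Lck, Cd8a, Cd8b1) passed the filter, and their summed scaled signal was 36028 to 41727 in acute, 22596 to 27565 in chronic and 30867 to 33446 in ChronicMEKi libraries. Summed markers of natural killer cells, mostly Cd160, were 1031 to 1128, 485 to 705 and 803 to 1118, with Ncr1 at a mean of 2. Summed B cell markers were 695 to 852, 389 to 454 and 247 to 676. Myeloid markers summed to 186 to 255, 120 to 194 and 97.7 to 264, dendritic cell markers to 206 to 300, 312 to 351 and 161 to 243, and Cd4 with Zbtb7b to 1040 to 1367, 1054 to 1383 and 1729 to 2016. None of these markers was at exactly 0, and the part of other cells in the results was not tested.

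Chronic cells had more Prdm1, Zeb2 and Bhlhe40 signal and less Runx1, Zeb1 and Tbx21 signal than acute cells. Under MEK inhibition each of these 6 moved the other way: 5 came to lie between the chronic and acute means, and Tbx21 rose above the acute level. How many of all genes moved in this way was not counted, so this does not set these 6 apart. Between chronic and acute libraries, 6 of the 9 genes were called (limma, adjusted p under 0.05), against 33.9% of the 15942 genes tested: Prdm1, Zeb2 and Bhlhe40 were higher (18% of all genes), and Runx1, Zeb1 and Tbx21 lower (15.9%), in chronic cells. Between ChronicMEKi and chronic libraries 8 of the 9 were called, against 17.6% of all genes: Tbx21, Zeb1, Runx3, Runx2 and Runx1 were higher (9.93% of all genes) and Zeb2, Prdm1 and Bhlhe40 lower (7.65%). Between ChronicMEKi and acute libraries 7 of the 9 were called, against 25.8% of all genes: Tbx21, Prdm1, Runx2, Zeb2, Runx3 and Bhlhe40 were higher (14.4% of all genes) and Runx1 lower (11.5%). The libraries of the groups did not overlap for 6, 8 and 9 of the genes in these comparisons, respectively. The share of all genes without overlap was not counted, so these numbers do not set the 9 genes apart. The median size of the difference, regardless of sign, was 1.07, 0.86 and 0.60 on the log2 scale, beside 0.41, 0.27 and 0.33 over all genes tested. The comparisons share groups, so a chronic level enters both of the first contrasts. Scaled to library totals, the calls became 3 higher and 5 lower between chronic and acute, 5 higher and 3 lower between ChronicMEKi and chronic, and 2 higher and 2 lower between ChronicMEKi and acute libraries. On that scale the median log2 difference of all genes was -0.50, 0.14 and -0.37. The shares of all genes above belong to the main scaling, and those on totals are not given here. In bulk RNA of this kind, fewer cells making a transcript and less transcript per cell cannot be told apart.

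**Figure D1:**
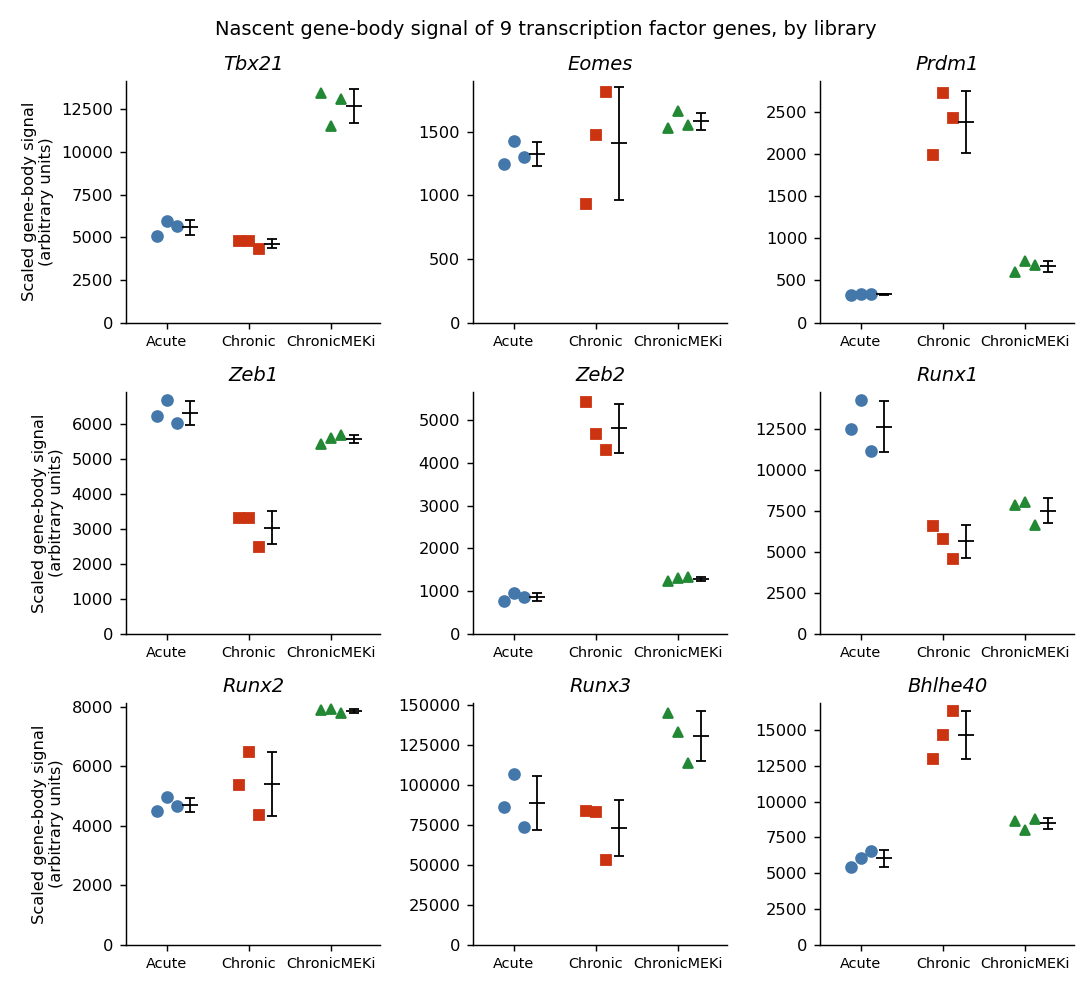
Scaled gene-body signal (arbitrary units, linear axes from 0) of each of the 9 genes in every library, by group, with mean and SD of 3 libraries. Prdm1, Zeb2 and Bhlhe40 are highest in the chronic libraries, Zeb1 and Runx1 lowest there, and Tbx21, Runx2 and Runx3 highest in the ChronicMEKi libraries.

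**Figure D2:**
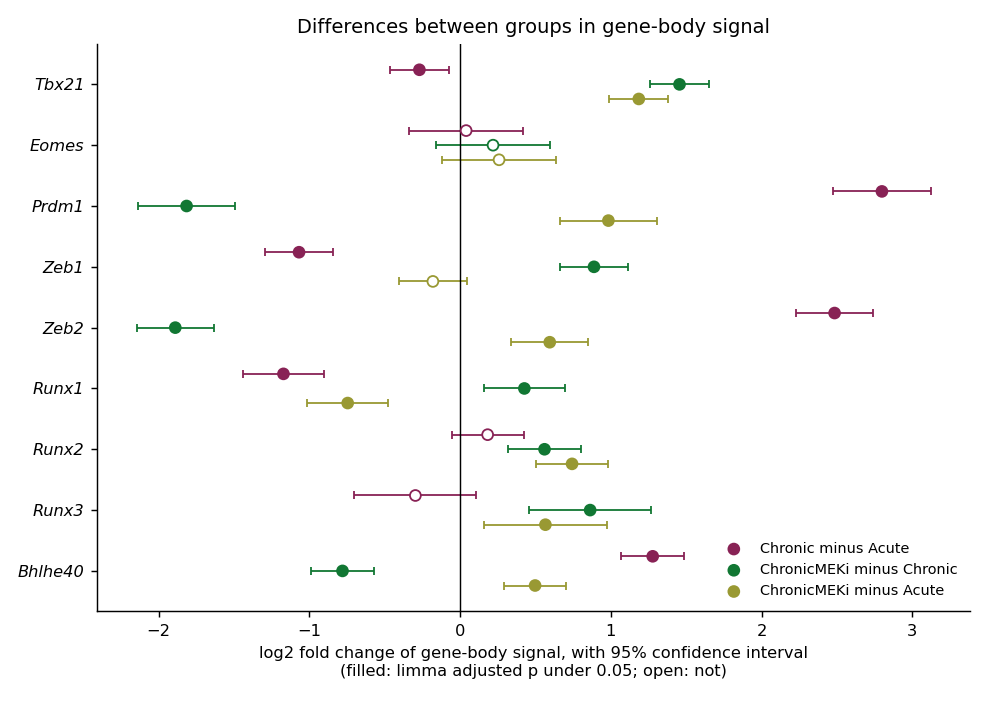
Log2 fold change of gene-body signal for each gene in the 3 comparisons, with 95% confidence intervals from limma; filled points have an adjusted p under 0.05. Zeb2 and Prdm1 have the largest differences between chronic and acute cells, 2.48 and 2.80, and the largest falls under MEK inhibition, -1.89 and -1.81.

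The T-box genes parted under MEK inhibition: Tbx21 signal was more than doubled over chronic cells, while no difference in Eomes was called. Tbx21 (ENSMUSG00000001444, chromosome 11, 97098071 to 97115331 on the minus strand) overlaps no other annotated gene. Its gene-body signal was 5098, 5961 and 5667 in the acute, 4758, 4782 and 4313 in the chronic and 13433, 11551 and 13083 in the ChronicMEKi libraries. Every ChronicMEKi library lay above every library of the other groups, and the chronic libraries lay just under the acute ones. The rise under MEK inhibition was 1.46 ± 0.09 on the log2 scale (SE; adjusted p = 3.07e-09), or 2.74-fold, and ranked 277th from the top among 15942 genes. Against acute cells the signal was 2.27-fold higher (adjusted p = 2.74e-08). The small fall between chronic and acute cells, -0.27 ± 0.09 (adjusted p = 0.0315), was not called when acute library 2 (adjusted p = 0.108), acute library 3 (0.0730), chronic library 3 (0.0645) or ChronicMEKi library 1 (0.0502) was left out, nor without the filter on low signal (0.233) or with limma's plain moderation (0.106). It was called in the other 15 of 21 alternatives. Its size ranged from -0.76 to -0.21 over all of them, and from -0.34 to -0.21 when 1 library was left out.

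Near its start, Tbx21 showed the same contrast. Pause-region signal was 226, 131 and 61.3 in the acute, 133, 29.2 and 65.4 in the chronic and 331, 361 and 312 in the ChronicMEKi libraries. The acute and chronic libraries overlapped and scattered widely, and the ChronicMEKi ones lay above both. The difference between ChronicMEKi and chronic cells was 2.29 ± 0.41 (adjusted p = 0.00100), the 19th highest of 7678 genes tested in that table. Against acute cells it was 1.41 (adjusted p = 0.0394), which was not called without acute library 2 (0.0914), acute library 3 (0.241), chronic library 3 (0.0801) or any 1 of the ChronicMEKi libraries (0.110 to 0.132), nor with a pseudocount of 0.5 (0.0633), without the filter (0.131) or scaled to totals (0.139). Between chronic and acute cells the difference of -0.88 was not called (adjusted p = 0.192), but was without acute library 3 (-1.37, adjusted p = 0.0269) or chronic library 1 (-1.38, adjusted p = 0.0340) and when scaled to totals (-1.45, adjusted p = 0.0180).

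Eomes (ENSMUSG00000032446, chromosome 9, 118478212 to 118486132 on the plus strand) was the gene with no call in any comparison. Its signal was 1244, 1426 and 1303 in the acute, 936, 1478 and 1815 in the chronic and 1533, 1661 and 1556 in the ChronicMEKi libraries. The chronic libraries spread over the whole range of the other groups. The differences were 0.04 (95% confidence interval -0.34 to 0.42), 0.22 (-0.16 to 0.60) and 0.26 (-0.12 to 0.64), so changes of these sizes are not shown to be absent. Scaled to library totals, Eomes was lower in chronic than in acute cells by the shift of all genes (-0.45, adjusted p = 0.0281), against a median shift of -0.49. Per kilobase of row, Tbx21 stood at 1.85 to 1.96 times Eomes in the acute, 1.07 to 2.30 times in the chronic and 3.14 to 3.95 times in the ChronicMEKi libraries. This ratio is free of scaling, and its ChronicMEKi values lay above all others. Gm33460, an antisense gene that overlaps the 3′ part of Eomes, was at a mean of 83.6, 168 and 122 in the groups, and strand use in the deposited signal is not given in the sources used here.

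The ZEB genes moved in opposite directions. Zeb2 (ENSMUSG00000026872, chromosome 2, 44983632 to 45117395 on the minus strand) was at 757, 945 and 860 in the acute, 5421, 4684 and 4312 in the chronic and 1236, 1294 and 1333 in the ChronicMEKi libraries. No groups overlapped, and the ChronicMEKi libraries lay much nearer the acute than the chronic ones. Zeb2 was 5.60-fold higher in chronic than in acute cells (2.48 ± 0.12 on the log2 scale, adjusted p = 3.00e-11), 144th from the top of 15942 genes. MEK inhibition lowered it by -1.89 ± 0.12 (adjusted p = 3.07e-09), to 0.59 above acute cells (adjusted p = 0.00116). That remaining difference was not called when scaled to totals (0.21, adjusted p = 0.284) or on the deposited scale (0.25, adjusted p = 0.200).

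Zeb1 (ENSMUSG00000024238, chromosome 18, 5591860 to 5775467 on the plus strand) was at 6209, 6685 and 6027 in the acute, 3292, 3305 and 2484 in the chronic and 5421, 5597 and 5663 in the ChronicMEKi libraries. The chronic libraries were the lowest, and the ChronicMEKi libraries fell just under the acute ones without overlap. It was lower in chronic than in acute cells by -1.07 ± 0.11 (adjusted p = 3.06e-07) and higher under MEK inhibition by 0.89 ± 0.11 (adjusted p = 6.95e-06). Against acute cells ChronicMEKi cells differed by -0.18 (95% confidence interval -0.40 to 0.04, adjusted p = 0.242), which was not called, but was called at -0.56 (adjusted p = 0.00304) when scaled to totals, at -0.52 (0.00485) on the deposited scale and at -0.35 (0.0216) on totals without the ribosomal RNA-like locus. The ratio of Zeb2 to Zeb1 signal per kilobase needs no scaling. It was 0.167 to 0.196 in the acute, 1.95 to 2.38 in the chronic and 0.313 to 0.323 in the ChronicMEKi libraries. Zeb2 thus stood above Zeb1 in the chronic libraries and below it in the other 6. Gm10125, which overlaps the start of Zeb1 on the opposite strand, had no call in any comparison.

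Prdm1 had the largest difference of the 9 genes between chronic and acute cells. Prdm1 (ENSMUSG00000038151, chromosome 10, 44437177 to 44528501 on the minus strand) overlaps no other annotated gene. Its signal was 328, 334 and 342 in the acute, 1993, 2720 and 2428 in the chronic and 599, 726 and 683 in the ChronicMEKi libraries. The groups did not overlap, and the acute libraries were within 14 units of each other. The chronic level was 6.96-fold the acute one (2.80 ± 0.15, adjusted p = 1.23e-10), 101st from the top of 15942 genes. MEK inhibition lowered it by -1.81 ± 0.15 (adjusted p = 1.03e-07), leaving it 0.98 ± 0.15 above acute cells (adjusted p = 9.60e-05). These calls held under all 21 alternatives run for each.

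Pause-region signal of Prdm1 was low, at 3.53, 5.34 and 26.7 in the acute, 110, 102 and 96.6 in the chronic and 30.9, 61.2 and 40.2 in the ChronicMEKi libraries. The order of the groups was that of the gene body, with no overlap. The chronic and acute cells differed by 2.93 ± 0.58 (adjusted p = 8.60e-04). The fall under MEK inhibition, -1.18 (95% confidence interval -2.37 to 0.01, adjusted p = 0.367), was not called, and neither was the difference of 1.76 between ChronicMEKi and acute cells (adjusted p = 0.0721), which was called without acute library 3 (2.35, adjusted p = 0.0191).

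Bhlhe40 (ENSMUSG00000030103, chromosome 6, 108660629 to 108666925 on the plus strand) showed the same order of groups with smaller differences. Its signal was 5431, 6085 and 6589 in the acute, 12973, 14685 and 16318 in the chronic and 8661, 8052 and 8792 in the ChronicMEKi libraries. Chronic cells were 1.28 ± 0.10 above acute cells (2.42-fold, adjusted p = 1.06e-08), and MEK inhibition lowered the signal by -0.78 ± 0.10 (adjusted p = 1.28e-05). ChronicMEKi cells lay 0.50 above acute cells (adjusted p = 9.39e-04), a difference not called when scaled to totals (0.11, adjusted p = 0.499) or on the deposited scale (0.15, adjusted p = 0.352). In the pause region the chronic rise was 1.12 ± 0.19 (adjusted p = 1.39e-04; 0.52 and 0.115 when scaled to totals), and the fall of -0.55 under MEK inhibition was not called (adjusted p = 0.143). The antisense gene 0610040F04Rik, which overlaps the start of Bhlhe40, also rose between acute (mean 151 ± 63.1, SD, n = 3) and chronic cells (418 ± 64.5), by 1.52 (adjusted p = 7.78e-04), and reads of the overlap cannot be told apart without strand. Per kilobase, the mean signal of Bhlhe40 was 958 in acute, 2328 in chronic and 1350 in ChronicMEKi libraries, the highest of the 9 genes in chronic libraries and the second, behind Runx3, in the other groups.

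The RUNX genes differed from each other. Runx1, known from haematopoietic development and resting T cells, was highest in acute cells, Runx2, a factor of memory T cells and bone, was highest under MEK inhibition, and so was Runx3. Runx1 (ENSMUSG00000022952, chromosome 16, 92601466 to 92826149 on the minus strand) was at 12493, 14285 and 11191 in the acute, 6600.5, 5773 and 4573 in the chronic and 7853, 8071 and 6675 in the ChronicMEKi libraries. The ChronicMEKi libraries lay between the others, close to the chronic ones. Runx1 was lower in chronic than in acute cells by -1.17 ± 0.13 (adjusted p = 1.52e-06) and lower in ChronicMEKi than in acute cells by -0.75 ± 0.13 (adjusted p = 2.80e-04). Its rise under MEK inhibition, 0.43 ± 0.13 (adjusted p = 0.0265), was not called without acute library 1 (0.0558), chronic library 2 (0.0629), chronic library 3 (0.0916), ChronicMEKi library 1 (0.146) or ChronicMEKi library 2 (0.0938), nor without the filter (0.249), with plain moderation (0.146) or with the mean of all Runx1 rows (0.0820). Gm26626, an antisense gene that overlaps Runx1, was at a mean of 289 ± 33.9, 192 ± 74.1 and 156 ± 8.26 (SD, n = 3) in the groups and was lower in ChronicMEKi than in acute cells by -0.86 (adjusted p = 0.0340). Reads of Gm26626 cannot be told apart from those of Runx1 without strand.

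Runx2 (ENSMUSG00000039153, chromosome 17, 44495987 to 44814797 on the minus strand) was at 4492, 4955 and 4660 in the acute, 5375, 6485 and 4352 in the chronic and 7883, 7932 and 7782 in the ChronicMEKi libraries. The ChronicMEKi libraries were above all others, and the chronic libraries straddled the acute ones. Runx2 was higher under MEK inhibition than in chronic cells by 0.56 ± 0.11 (adjusted p = 0.00162; 0.0506 without the filter) and than in acute cells by 0.74 ± 0.11 (adjusted p = 7.70e-05; 0.0562 when scaled to totals, with a difference of 0.36). Between chronic and acute cells the difference was 0.18 (95% confidence interval -0.06 to 0.42, adjusted p = 0.233), and without chronic library 3 it was called at 0.33 (adjusted p = 0.00762). Its sign was not stable: it ranged from -0.31 to 0.33 over 21 alternatives, and from 0.04 to 0.33 when 1 library was left out.

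Runx3 (ENSMUSG00000070691, chromosome 4, 135120652 to 135177990 on the plus strand) had a signal per kilobase of 1550 ± 293 in acute, 1274 ± 303 in chronic and 2279 ± 274 in ChronicMEKi cells (SD, n = 3), the highest mean of the 9 genes in acute and ChronicMEKi cells and the second, behind Bhlhe40, in chronic cells. Its signal was 86471, 106736 and 73407 in the acute, 83390, 82774 and 52950 in the chronic and 144914, 133284 and 113809 in the ChronicMEKi libraries. Library 3 was the lowest of every group, and acute and chronic libraries overlapped. Runx3 was higher under MEK inhibition than in chronic cells by 0.86 ± 0.18 (adjusted p = 0.00671), a call lost without chronic library 3 (0.64, adjusted p = 0.0685) and without the filter (0.79, adjusted p = 0.170). It was higher than in acute cells by 0.57 ± 0.18 (adjusted p = 0.0428), which was not called without acute library 1 (0.105), acute library 3 (0.153), ChronicMEKi library 1 (0.135) or ChronicMEKi library 2 (0.0734), nor with only the libraries compared (0.0508), without the filter (0.359), with plain moderation (0.111), scaled to totals (0.507), scaled to totals without the ribosomal RNA-like locus (0.141) or on the deposited scale (0.431). The difference of -0.30 between chronic and acute cells was not called (95% confidence interval -0.70 to 0.11, adjusted p = 0.246), but was called at -0.79 (adjusted p = 0.00474) scaled to totals and at -0.77 (0.00654) on the deposited scale. Runx3 over Runx1 per kilobase was 25.7 to 29.3 in the acute, 45.4 to 56.2 in the chronic and 64.7 to 72.3 in the ChronicMEKi libraries, with no overlap between groups. Runx2 over Runx1 was 0.370 to 0.444, 0.868 to 1.197 and 1.05 to 1.24, so this ratio was higher in all 6 chronically stimulated libraries than in the acute ones, while those with and without the inhibitor overlapped.

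The signal before and after the proximal start of each RUNX gene was then separated, by subtracting the row of a transcript from the proximal start from the row of one from the distal start. This is a description with no test, and the difference also holds the last 2.19 kb of Runx1 and 1.809 kb of Runx3, past the end of the shorter row. In Runx1, the 131.0 kb distal stretch fell the most: its scaled signal per kilobase was 62.7 ± 7.33 in acute, 22.6 ± 4.65 in chronic and 35.3 ± 4.56 in ChronicMEKi cells (SD, n = 3), a log2 ratio of -1.47 between chronic and acute and 0.64 between ChronicMEKi and chronic. From the proximal start on, over 93.7 kb, it was 47.4 ± 6.43, 28.7 ± 5.34 and 31.0 ± 1.68, with ratios of -0.72 and 0.11. The distal stretch thus held 65.0% ± 0.727 of the row's signal in acute, 52.4% ± 3.70 in chronic and 61.3% ± 1.94 in ChronicMEKi libraries, and these shares, which need no scaling, did not overlap between any groups.

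Runx2 and Runx3 did not show that pattern. In Runx2 the 78.1 kb before the proximal start held little signal, 5.14, 6.64 and 6.32 per kilobase in the 3 groups, which overlapped, and part of it lies within Supt3 on the opposite strand. The 132.6 kb from the proximal start on carried 32.4 ± 1.68, 36.8 ± 7.81 and 55.6 ± 0.842 per kilobase, so the higher signal under MEK inhibition was in that stretch. In Runx3 both stretches were higher under MEK inhibition to a like degree: 2026, 1696 and 3010 per kilobase over the distal 33.7 kb, and 874, 674 and 1240 over the 23.7 kb from the proximal start on. The distal share of Runx3 was 76.9% ± 1.75, 78.1% ± 0.563 and 77.4% ± 1.15, with overlapping groups.

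**Figure D3:**
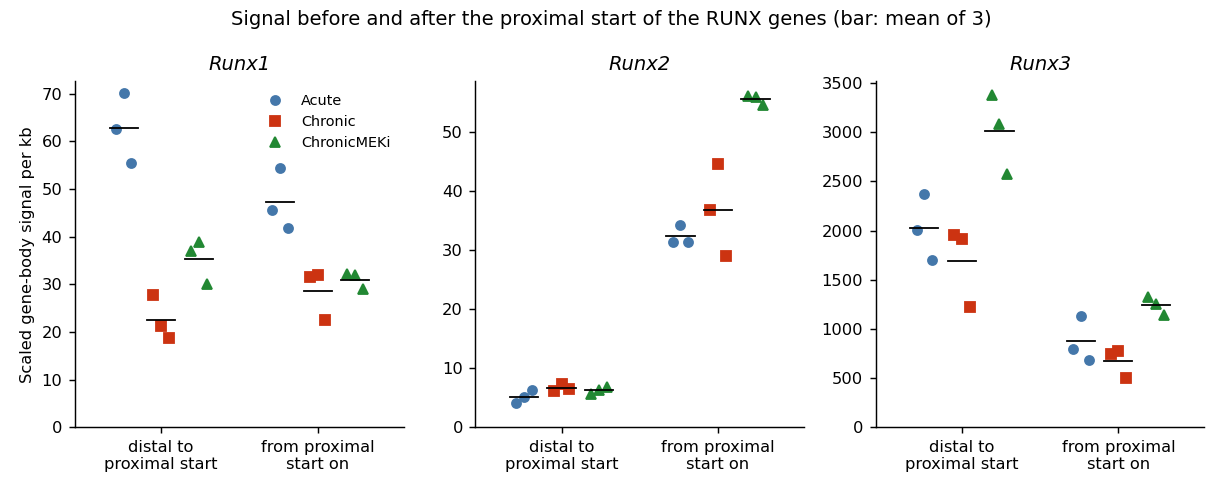
Scaled gene-body signal per kilobase before and after the proximal start of Runx1, Runx2 and Runx3, 1 point per library, bar at the mean of 3. In Runx1 the distal stretch is above the proximal one in acute libraries (62.7 against 47.4) and below it in chronic libraries (22.6 against 28.7).

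In the pause-region table at the level of genes, 5 of the 9 genes passed the filter (Tbx21, Prdm1, Zeb1, Runx3 and Bhlhe40). Between chronic and acute cells 3 of them were called (10.7% of 7678 genes tested), Prdm1 and Bhlhe40 higher (5.37% of genes) and Runx3 lower (5.35%). Tbx21 was the gene called between ChronicMEKi and chronic cells (3% of genes either way, 1.56% higher and 1.43% lower) and between ChronicMEKi and acute cells (5.95% either way, 3.44% higher). Runx3 was lower in chronic than in acute cells by -0.69 ± 0.20 (adjusted p = 0.0255), from 2525, 2062 and 2576 to 1672, 1952 and 978, a call lost without acute library 1 (0.0919), acute library 3 (0.0751) or chronic library 3 (0.232). Zeb1 had no call and erratic values, at 65.3, 32.6 and 61.3 in the acute, 7.32, 110 and 0 in the chronic and 25.6, 48.4 and 132 in the ChronicMEKi libraries, and it was called lower in chronic cells without chronic library 2 (-2.85, adjusted p = 0.0182) and when scaled to totals (-1.94, adjusted p = 0.0452). Without chronic library 2 its rise under MEK inhibition was called too (2.97, adjusted p = 0.0413). The balance of pause-region against gene-body signal, called pausing here, had 0 calls among these 5 genes and 0 among 7413 genes (0%) in each comparison with limma, where 749, 394 and 591 genes had an unadjusted p under 0.05. Of the 5, only Runx3 between ChronicMEKi and acute cells had an unadjusted p under 0.05 (0.0392), with a difference of -0.72.

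Signal was then read at each of the 75 annotated starts of the 9 genes, of which 31 passed the filter. Starts that lie close together share signal and are not independent. Between chronic and acute cells, 7 of the 31 were called higher (5.06% of all 34640 starts tested) and 4 lower (5.02%; 10.1% either way). Between ChronicMEKi and chronic cells 6 were higher (1.34% of all starts) and 0 lower (1.16%; 2.5% either way), and between ChronicMEKi and acute cells 5 were higher (3.3%) and 0 lower (2.42%; 5.71% either way). In Prdm1, the start farthest upstream, 69753 bases before the next, was near 0, and the signal was highest at the second and the third start, which are 61 bases apart. The third was at 1.68, 5.97 and 25.0 in the acute, 120, 109 and 111 in the chronic and 33.6, 63.4 and 43.6 in the ChronicMEKi libraries, a difference of 3.18 between chronic and acute cells (adjusted p = 3.03e-04). The second start is the one whose promoter is printed above. In Zeb2, the first of 29 starts was near 0, and the starts that passed the filter were the 24th to 26th, 7107 to 7319 bases downstream, beside the printed AP-1 matches. The 26th was at 5.89, 47.2 and 46.3 in the acute, 152, 122 and 93.0 in the chronic and 27.4, 71.9 and 74.6 in the ChronicMEKi libraries. All 3 were called higher in chronic than in acute cells, by 1.96 to 2.02 (adjusted p = 0.0108 to 0.0188), and their falls of -0.96 to -1.10 under MEK inhibition were not called.

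Zeb2os, a short antisense gene that overlaps the 5′ part of Zeb2 (chromosome 2, 45110707 to 45114087 on the plus strand), moved with Zeb2. It was at 10.2, 11.8 and 14.3 in the acute, 99.2, 68.9 and 118 in the chronic and 9.61, 4.24 and 4.17 in the ChronicMEKi libraries, a difference of 2.53 (adjusted p = 0.00641) and of -3.19 under MEK inhibition (adjusted p = 0.00208). Without strand its reads cannot be told apart from those of Zeb2.

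Among the RUNX starts, 1 distal start of Runx1, 371 bases from its first, fell from 61.4, 91.9 and 148 in acute to 30.7, 13.0 and 9.30 in chronic libraries (-2.25, adjusted p = 0.0153), with 10.3, 24.7 and 32.0 in ChronicMEKi libraries. The proximal start of Runx1 that passed was at 76.6, 43.0 and 106 in acute and 76.2, 43.8 and 92.0 in chronic libraries (-0.06, adjusted p = 0.965). In the ChronicMEKi libraries it was at 45.3, 41.8 and 9.69, a difference of -1.16 from chronic cells that was not called (adjusted p = 0.291). The test of a difference between the starts was not run. In Runx2 the 4 starts that passed were proximal, 78621 to 79431 bases from the first, and none was called. In Runx3 the 5 proximal starts, 31844 to 33784 bases from the distal one, were each called higher under MEK inhibition than in chronic cells, by 0.69 to 1.10 (adjusted p = 7.16e-04 to 0.0387). These 5 starts lie within the transcript from the distal start, so its signal can enter their values. The distal start of Runx3 was at 2407, 2074 and 2415 in the acute, 1692, 1980 and 1005 in the chronic and 2334, 2534 and 1751 in the ChronicMEKi libraries. It was called lower in chronic than in acute cells (-0.61, adjusted p = 0.0420), and its difference of 0.54 under MEK inhibition was not called (adjusted p = 0.176). Gm16225, whose start lies 205 bases from that of Runx3 on the other strand, and Gm16224, within Runx3, were higher under MEK inhibition than in chronic cells by 2.20 (adjusted p = 0.0163) and 1.06 (adjusted p = 0.00104). Reads of Gm16224 cannot be told apart from those of Runx3 without strand.

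**Figure D4:**
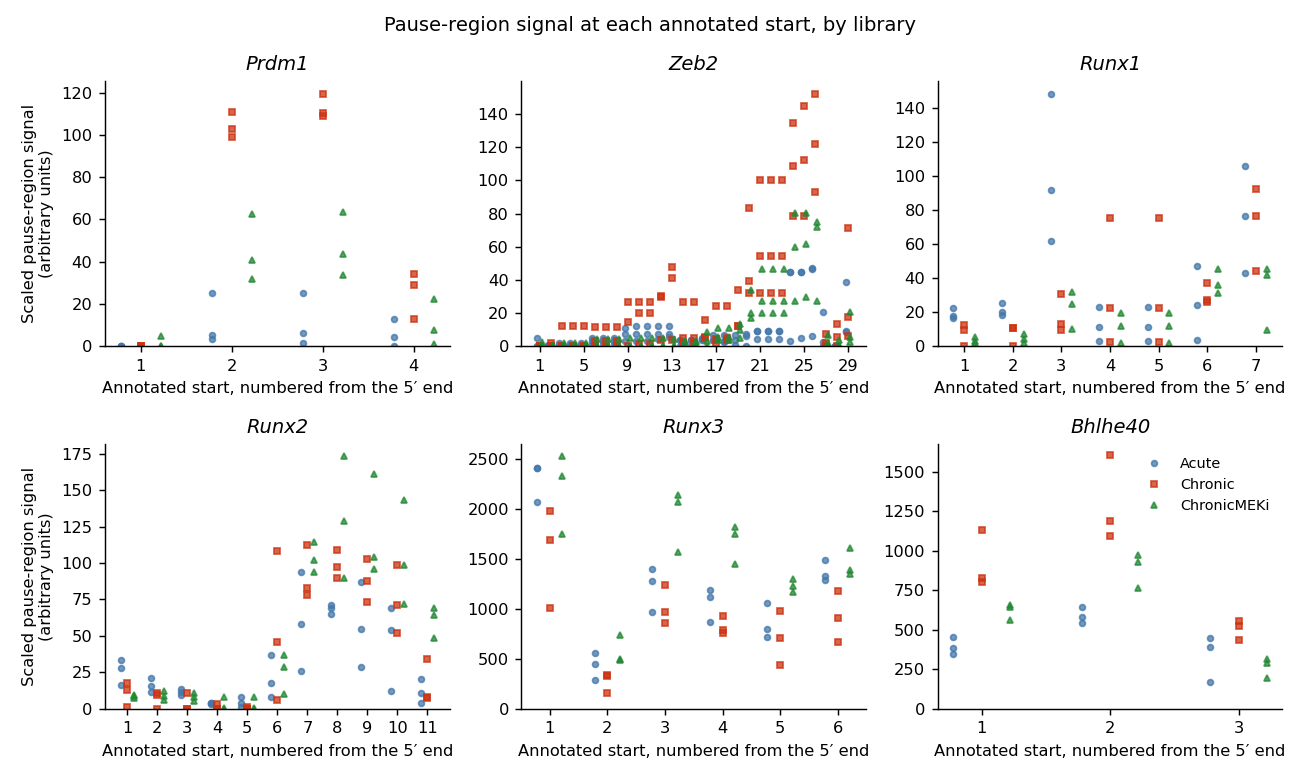
Scaled pause-region signal at each annotated start, numbered from the 5′ end of the gene, 1 point per library, for 6 of the genes with several starts. Group means are highest at starts 2 and 3 of Prdm1, starts 24 to 26 of Zeb2 and the proximal starts 7 to 10 of Runx2, with less signal at some other starts. In Runx3 the ChronicMEKi libraries are above the others at starts 3 and 4.

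Of 16 partner and corepressor genes, all tested, 1 was higher and 6 lower in chronic than in acute cells, where 18% and 15.9% of all genes were (median log2 difference -0.15, beside -0.02 over all genes). Under MEK inhibition 10 were higher and 1 lower than in chronic cells, beside 9.93% and 7.65% of all genes (median 0.33, beside 0.04). Against acute cells 4 were higher and 3 lower, beside 14.4% and 11.5% of all genes (median 0.16, beside 0.00). Scaled to totals, for which the shares of all genes are not given here, the counts were 1 and 13, 10 and 0, and 1 and 5. Cbfb, the partner subunit of all RUNX proteins, was at a mean of 10524 ± 199 in acute, 9302 ± 1353 in chronic and 11278 ± 64.5 in ChronicMEKi cells (SD, n = 3), a rise under MEK inhibition of 0.29 (adjusted p = 0.0475). Cbfa2t3, a corepressor that partners RUNX factors in leukaemia, fell by -1.37 in chronic cells (adjusted p = 0.00238) and rose by 2.23 under MEK inhibition (adjusted p = 4.85e-05). Ctbp2, a corepressor recruited by ZEB proteins, was the partner higher in chronic cells (1.14, adjusted p = 1.02e-04). Smad3, the transforming growth factor beta effector that works with ZEB proteins, was lower in chronic cells (-1.01, adjusted p = 7.73e-06) and lower again under MEK inhibition (-0.46, adjusted p = 0.0182). Ehmt2 and Ezh2, histone methyltransferases, were higher in ChronicMEKi than in acute cells by 1.00 (adjusted p = 1.25e-04) and 0.66 (adjusted p = 2.01e-05), and Ehmt2 rose by 0.91 over chronic cells (adjusted p = 4.57e-04). Kdm1a, a histone demethylase, was lower in ChronicMEKi than in acute cells by -0.34 (adjusted p = 0.0132).

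Relatives in the same gene families were counted next. Of 12 relatives tested (14 listed; Tbx19 and Tbr1 did not pass the filter), 1 was higher and 1 lower between chronic and acute cells (18% and 15.9% of all genes), 2 and 2 between ChronicMEKi and chronic cells (9.93% and 7.65%), and 2 and 1 between ChronicMEKi and acute cells (14.4% and 11.5%). The medians were -0.02, -0.09 and 0.03, beside -0.02, 0.04 and 0.00 over all genes. Scaled to totals, for which the shares of all genes are not given here, the counts were 0 and 6, 2 and 1, and 0 and 3. Zfp683, which encodes HOBIT, the T cell relative of BLIMP-1, was at a mean of 1233, 1523 and 1858 in the 3 groups and was called between ChronicMEKi and acute cells (0.59, adjusted p = 0.00138). Prdm11 moved opposite to Prdm1, with -0.95 between chronic and acute cells (adjusted p = 5.18e-04) and 0.90 under MEK inhibition (adjusted p = 0.00162). Prdm9 was higher in chronic cells (1.08, adjusted p = 0.0211). Prdm10 rose under MEK inhibition by 0.51 (adjusted p = 0.00341). Mga, a T-box protein that pairs with MAX, fell under MEK inhibition by -0.37 (adjusted p = 0.00518).

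Genes that these factors are known to activate in effector cells were mixed. Of 21 tested (25 listed), 12 were higher and 6 lower in chronic than in acute cells, beside 18% and 15.9% of all genes (median 0.63, beside -0.02). Under MEK inhibition 6 were higher and 9 lower than in chronic cells, beside 9.93% and 7.65% (median -0.21, beside 0.04), and 9 higher and 5 lower than in acute cells, beside 14.4% and 11.5% (median 0.13, beside 0.00). Scaled to totals, for which the shares of all genes are not given here, these counts were 10 and 9, 6 and 8, and 5 and 8. The last median was then -0.26, beside -0.37 over all genes. The chemokine genes Ccl3 and Ccl4 were higher in chronic cells by 5.22 (adjusted p = 3.18e-06) and 5.39 (adjusted p = 7.58e-08) and fell under MEK inhibition by -5.40 and -5.82, to means of 9.42 and 15.2. Ifng, the interferon gamma gene and a T-bet target, was at a mean of 137, 1827 and 775 in the groups, 2.46 above acute cells under MEK inhibition (adjusted p = 3.46e-08). Prf1, the perforin gene, was at 91.3, 2208 and 330 (1.81, adjusted p = 4.43e-06). Both fell under MEK inhibition (-1.22, adjusted p = 1.95e-04, and -2.72, adjusted p = 4.12e-08), where Tbx21 rose. A link between Tbx21 and these genes was not tested. Cd8a, a RUNX3 target and lineage marker, fell in chronic cells by -2.07 (adjusted p = 5.65e-10) and rose under MEK inhibition by 1.58 (adjusted p = 6.14e-08), and Ctsw, a cytotoxic-cell protease gene, did likewise (-1.94 and 1.67). Itgae and Cxcr6, genes of tissue-resident cells, were lower in ChronicMEKi than in acute cells (-1.197 and -1.32).

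Of 21 genes linked to repression by these factors that were tested (22 listed), 5 were higher and 11 lower in chronic than in acute cells, beside 18% and 15.9% of all genes (median -0.47, beside -0.02). The counts were 7 higher and 10 lower between ChronicMEKi and chronic cells, beside 9.93% and 7.65% (median -0.19, beside 0.04), and 2 higher and 12 lower between ChronicMEKi and acute cells, beside 14.4% and 11.5% (median -0.58, beside 0.00). Scaled to totals, for which the shares of all genes are not given here, the counts were 4 and 13, 8 and 9, and 2 and 17. Cdh1, the E-cadherin gene and classical ZEB target, was at a mean of 1026, 15.2 and 156 in the groups: it fell by -5.75 in chronic cells (adjusted p = 3.56e-10), where Zeb2 was high and Zeb1 low, and rose by 3.06 under MEK inhibition (adjusted p = 3.18e-06). Il10, a BHLHE40-repressed gene in other T cells, moved the same way as Bhlhe40, at 1021, 14537 and 724 (3.83 and -4.31). Id3, a BLIMP-1-repressed memory gene, rose by 2.90 under MEK inhibition (adjusted p = 9.45e-09), and S1pr1, an egress receptor, fell by -3.77 in chronic cells (adjusted p = 2.89e-12). Gata3, the type 2 factor, rose in chronic cells by 1.82 (adjusted p = 1.12e-11) and was 0.96 above acute cells under MEK inhibition (adjusted p = 6.95e-08), and Zbtb7b, the CD4-lineage factor that RUNX proteins repress, was higher in ChronicMEKi than in acute cells by 1.17 (adjusted p = 7.41e-06), in libraries where Runx3 was high. Cd8a and Zbtb7b also stand among the cell markers above. Links between the factors and the genes set beside them here were not tested.

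**Figure D5:**
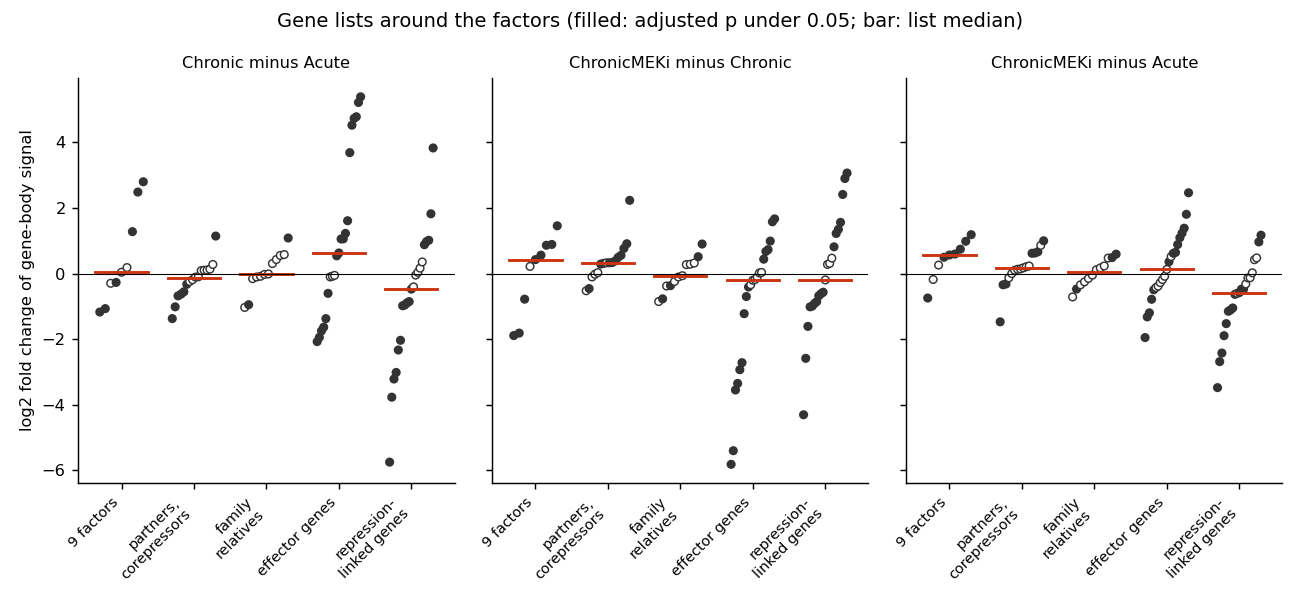
Log2 fold change of gene-body signal of each tested gene of the 9 factors and the 4 lists around them, in the 3 comparisons; filled points have a limma adjusted p under 0.05 and bars mark list medians. Effector genes spread widely between chronic and acute cells (median 0.63), and genes linked to repression lie mostly under 0 between ChronicMEKi and acute cells (median -0.58).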

How the data were processed

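Nascent RNA from 9 libraries of mouse CD8+ T cells was analysed, 3 in each of 3 groups taken from the sample titles. The deposited values are signal per transcript in a gene-body and a pause-region table of 118482 rows each, made by the authors. Low values are whole multiples of a step of 0.764 to 1.06 that differs between libraries, and 4 steps occur more often than 3, so the signal was not treated as reads. Its regions, strand use, and the roles of the tools are not given in the sources used here. The submitters' processing notes name FastQC 0.12.0, Trim Galore 0.6.10, STAR 2.7.0a, SAMtools 1.19.2, deepTools 0.1.9, R 4.1.2 and the build mm10.

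Rows were matched to GENCODE M21 (GRCm38, autosomes) by transcript, 117346 with and 383 without the version, and 753 unmatched rows were left out. This left 37022 genes, of which 49.3% overlap another, and each was read from the transcript with the most gene-body signal averaged over libraries. Genes that reached 50 units of signal in 3 or more libraries were scaled by a trimmed mean of log ratios (30% and 5% trimmed) and tested as log2(signal + 5) with limma 3.58.1 in R 4.3.3 (trend, robust, 1 mean per group, 9 libraries), which understates the change of low genes. Values were assembled in Python 3.11.15 (pandas 2.3.3). All adjusted p-values are two-sided, by Benjamini and Hochberg over all genes or starts of a comparison, with a threshold of 0.05, and the fit was tested on simulated data. An exact permutation test of 3 against 3 libraries cannot go below 0.1 and was not used.

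The 9 genes, the lists and the motifs were chosen with earlier results of these data known, so no count over them is independent evidence. All 9 are named. Of each list, up to 2 rises and 2 falls per comparison are named, namely the greatest called differences with a mean of 100 or more in the higher group, besides Cbfb, which was chosen for its role; some genes that this rule names are not reported here. Alternatives changed the scaling (library totals, deposited scale, totals without the ribosomal RNA-like locus), pseudocount (0.5, 20), filter (none, 200), moderation, libraries fitted, replicate block and row per gene, and left out each library.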

Additional observations from a re-analysis of the deposited data

How the results depend on the processing

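Of 567 recomputed gene-body values of the 9 genes (27 results), 526 kept their call or stayed uncalled, 32 lost and 7 gained a call, and 2 reversed. The 2 were Eomes between chronic and acute cells, -0.45 on library totals and -0.43 on the deposited scale. A change of sign was counted only where either value was called. Uncalled values could change sign: Runx2 between chronic and acute cells, 0.18 as reported, reached -0.31. Of 195 pause-region values, 175 kept their call or stayed uncalled, and 13 lost and 7 gained a call. All 195 pausing values stayed uncalled, some with a changed sign, as for Zeb1 between chronic and acute cells (-0.48 as reported, up to 0.36). Counts of calls over all genes or starts are given for Chronic minus Acute, ChronicMEKi minus Chronic and ChronicMEKi minus Acute, in that order. Without the filter they were 1637 and 2642 for the last 2 gene-body comparisons (2802 and 4118 with it), 494, 107 and 206 for the pause region (823, 230 and 457), and 2205, 369 and 749 for starts (3491, 865 and 1979). Scaled to totals, calls between chronic and acute cells were 1723 for the pause region and 5613 for starts. Pausing calls, 0 as reported, were 4 between chronic and acute cells on totals, 1 with a pseudocount of 0.5 and 24 without the filter, and 2 between ChronicMEKi and chronic cells without the filter; more genes were tested in the fits without the filter, and the cause was otherwise not tested. Leaving out 1 library gave 4411 to 5387, 2128 to 3041 and 3219 to 4553 gene-body calls, 545 to 750, 109 to 279 and 233 to 512 pause-region calls, 2178 to 3689, 392 to 1026 and 804 to 2699 start calls, and 0 to 1 pausing calls between chronic and acute cells.

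The replicate numbers were not taken to pair the libraries: deviations of same-numbered libraries correlated at -0.53 to 0.10 over 9 pairs, none over 0.1. Between acute and chronic libraries each correlated best with its own number, but this did not hold for every library in the comparisons with ChronicMEKi libraries. With the replicate block there were 5497, 2956 and 4263 gene-body, 865, 260 and 514 pause-region, 0, 0 and 0 pausing and 3765, 1003 and 2261 start calls, and Runx3 was called between chronic and acute cells (-0.30, adjusted p = 0.0183).

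Depth in reads is unknown, so counting error could not be given. Pause-region signal of Prdm1, Zeb1, Zeb2, Runx1 and Runx2 was weak. Strand use is not given, so signal of Eomes, Zeb1, Zeb2, Bhlhe40, Runx1, Runx2 and Runx3 cannot be told apart from that of the genes that overlap them. Values of the RUNX stretches are differences of overlapping rows.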
